A study of Mus musculus with 15 samples.

Results

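The mitosis and G2/M genes are 43 listed genes whose products act between the end of DNA replication and the separation of daughter cells. They were listed by gene symbol with earlier results of these data known, and the rule itself uses no measured value. Of the 43, 42 had a probe set on the array and 1, Ccnb1, had none under its symbol and was not measured here. The 42 are among 18193 genes with a probe set and 11908 genes that passed the filter on low values. All 42 passed, and each lay above the median of its own array on all 15 arrays, so none passed only through a group in which it was high.

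Gene expression was measured on 15 mouse Affymetrix arrays, 3 in each of 5 groups, in a study of cells that exclude a DNA dye (the side population, SP) in a mouse glioma model. After culture, sorting gave SP cells, which pump the dye out, and the remaining cells (non-SP). The groups were 3447 SP, 3447 non-SP, 4346 SP, neurosphere SP and neurosphere non-SP. 3447 and 4346 are cultures of tumorspheres, floating spheres of tumour cells, taken from brain tumours of S100beta-verbB mice that were p53-/- or p53+/-. Each was injected into the brains of 3 immunodeficient NOD.Cg-Prkdc<scid>Il2rg<tm1Wjl>/SzJ hosts and cultured again before sorting, so the 3 arrays of a tumour group share 1 injected culture. The S100beta promoter drives the verbB oncogene in glial cells, and neurosphere and tumour cells carry the same transgene, with either p53 genotype. The sources do not say which line had which p53 genotype. The neurospheres were untransformed cultures of neural stem and progenitor cells, given in a passage as taken from 3 independent mice and in another as cultured from 3 mice injected with neurospheres. No age was given.

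Entry into mitosis is driven by Cdk1 bound to cyclins A and B, and exit by the anaphase-promoting complex (APC/C), a ubiquitin ligase that marks cyclin B and securin for destruction. Transcripts of the mitotic machinery accumulate together in G2 and M phase under the MuvB complex with B-Myb and Foxm1, and under NF-Y, which binds CCAAT boxes. Many of their promoters carry a cell cycle genes homology region, TTTGAA being its usual core, to which MuvB binds. The summed level of these transcripts in a sorted population depends on how many cells are in G2 and M as well as on the RNA per cell, and in bulk samples these cannot be told apart.

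The promoters of 35 of the 43 genes were in the RefSeq table of windows from 250 bases before to 50 bases after a gene's start (assembly GRCm38.p6). On either strand, TTTGAA was present in 27 of the 35, or 77.1%, against 17.9% of all 32851 windows and 13.9% of the 9667 tested genes with a window. In 13 of these 27 genes a match lay wholly before the start site. CCAAT was present on either strand in 28 of the 35, against 37.4% of all windows and 43.5% of the tested genes. Both were present in 24 of the 35, or 68.6%, against 6.95% of all windows and 5.65% of the tested genes. The 2 motifs shared bases at 1 place among the members. Matches are letters in a window and say nothing about binding in these cells. The 250 bases before the start are shown for 5 members that carry both motifs there, namely the kinase Cdk1 (chr10:69352913-69353162), the APC/C activator Cdc20 (chr4:118437344-118437593) and 3 genes that were higher in 3447 non-SP cells, Top2a (chr11:99024190-99024439), Mki67 (chr7:135716380-135716629) and Ncapd2 (chr6:125191587-125191836). All are read 5′ to 3′ on the minus strand, with matches of either motif on either strand in capitals.
Cdk1: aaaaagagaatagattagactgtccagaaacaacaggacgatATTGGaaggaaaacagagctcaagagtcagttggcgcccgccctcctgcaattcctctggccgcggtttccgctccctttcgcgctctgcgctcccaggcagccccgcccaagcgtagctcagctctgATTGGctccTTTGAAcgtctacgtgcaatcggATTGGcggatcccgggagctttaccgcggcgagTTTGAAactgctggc
Cdc20: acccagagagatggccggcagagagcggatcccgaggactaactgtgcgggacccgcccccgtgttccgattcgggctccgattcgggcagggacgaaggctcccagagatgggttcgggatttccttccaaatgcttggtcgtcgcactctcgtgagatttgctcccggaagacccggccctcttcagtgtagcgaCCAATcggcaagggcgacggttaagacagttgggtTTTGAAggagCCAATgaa
Top2a: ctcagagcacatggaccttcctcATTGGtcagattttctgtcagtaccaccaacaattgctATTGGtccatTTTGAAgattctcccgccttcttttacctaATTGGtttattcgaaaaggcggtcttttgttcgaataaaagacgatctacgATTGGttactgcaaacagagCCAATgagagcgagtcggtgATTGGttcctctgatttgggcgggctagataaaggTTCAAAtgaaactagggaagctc
Mki67: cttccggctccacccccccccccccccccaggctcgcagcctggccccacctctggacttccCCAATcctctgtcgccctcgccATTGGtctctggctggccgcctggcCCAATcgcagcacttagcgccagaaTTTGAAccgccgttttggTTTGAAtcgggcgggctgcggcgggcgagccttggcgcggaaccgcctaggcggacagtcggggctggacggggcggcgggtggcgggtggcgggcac
Ncapd2: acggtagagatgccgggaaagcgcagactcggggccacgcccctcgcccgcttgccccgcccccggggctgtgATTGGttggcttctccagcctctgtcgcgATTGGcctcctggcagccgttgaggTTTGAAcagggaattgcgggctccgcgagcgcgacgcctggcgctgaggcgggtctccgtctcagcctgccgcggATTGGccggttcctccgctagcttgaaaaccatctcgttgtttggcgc
Of the 5, Top2a held 6 CCAAT boxes in these bases, Cdk1, Mki67 and Ncapd2 held 3 each and Cdc20 held 2, while TTTGAA was found 2 times in Cdk1, Top2a and Mki67 and 1 time in Cdc20 and Ncapd2.

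Array medians of the deposited MAS5 signal, a linear brightness per probe set, ran from 40.0 to 89.3. The ratio of 3′ to 5′ signal of actin, a sign of RNA quality, was 5.30 on array 3 of the 4346 SP and 2.49 to 3.29 on the other arrays. That array and array 3 of the 3447 SP, which had the highest median, stand apart. Of 6 oligodendrocyte progenitor markers, 4 (Sox10, Cspg4, Pdgfra and Gpr17) were higher in 3447 non-SP than in neurosphere non-SP cells, and of 6 astrocyte markers 1 (S100b) was higher and 3 (Gja1, Slc1a3 and Aldh1l1) were lower. The other 2 progenitor markers, Olig1 and Olig2, were not called and had lower means, with Olig1 at 2879 ± 503 in 3447 non-SP and 4469 ± 626 in neurosphere non-SP cells and Olig2 at 2798 ± 309 and 4692 ± 551 in those groups (SD, n = 3 each). The summed signal of the progenitor markers was 16296 to 18464 in 3447 non-SP and 8841 to 11529 in neurosphere non-SP cells. Of 6 microglial and leukocyte markers 1, Cd68, passed the filter, and the others were near the array background. Endothelial markers were likewise near it, with 0 of 5 tested. Cd68 had 55.8 ± 21.7 in 3447 non-SP, 104 ± 75.9 in neurosphere non-SP, 109 ± 18.8 in 3447 SP, 231 ± 187 in neurosphere SP and 266 ± 125 in 4346 SP cells (SD, n = 3 each). The summed signal of the microglial and leukocyte markers ran from 57.9 to 133 in 3447 non-SP and from 114 to 227 in neurosphere non-SP cells. In SP cells it ran from 132 to 190 in 3447 and from 163 to 418 in 4346. In the neurosphere SP it was 531 on array 1 and 184 and 193 on arrays 2 and 3. Of 7 neural stem markers, all of which passed the filter, 2 (Nes and Prom1) were lower in 3447 non-SP, and 5 of the 7 had differences below 0 (median -0.72). Sox2 had a signal of 5947 ± 111 in 3447 non-SP and 6103 ± 329 in neurosphere non-SP cells (SD, n = 3 each). The neuronal marker Tubb3 was higher and Snap25 lower in 3447 non-SP cells, and 3 of the 4 neuronal markers tested were below 0 (median -0.72). Markers and members differed between the same groups, and the part of cell type in the members' differences was not tested.

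Below, a signal is the deposited value and a difference is a log2 fold change ± SE on quantile-normalized log2(signal + 16), which understates changes of dim genes. A gene is called when its adjusted p is under 0.05, from limma with Benjamini-Hochberg adjustment over 11908 genes. With 3 arrays a group, p-values measure the spread between these arrays. Levels are not compared between genes, since each probe set has its own response.

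The members moved together from array to array. On array 2 of the 3447 SP, all 42 lay below their own group mean, with a median deviation of -0.65 (log2), and 41 were the lowest of their group. The first array of the neurosphere SP behaved alike, with 42 of 42 below the group mean, 42 the lowest of the group and a median deviation of -0.50. Among all genes tested, 43.5% and 46.2% lay below the group mean on these 2 arrays, with medians of 0.04 and 0.02. The first array of the neurosphere non-SP (39 of 42 below, median -0.27) and array 2 of the 4346 SP (38 of 42 below, median -0.33) were also low. In the 3447 non-SP the 3 medians of deviation lay between -0.11 and 0.06.

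**Figure D1:**
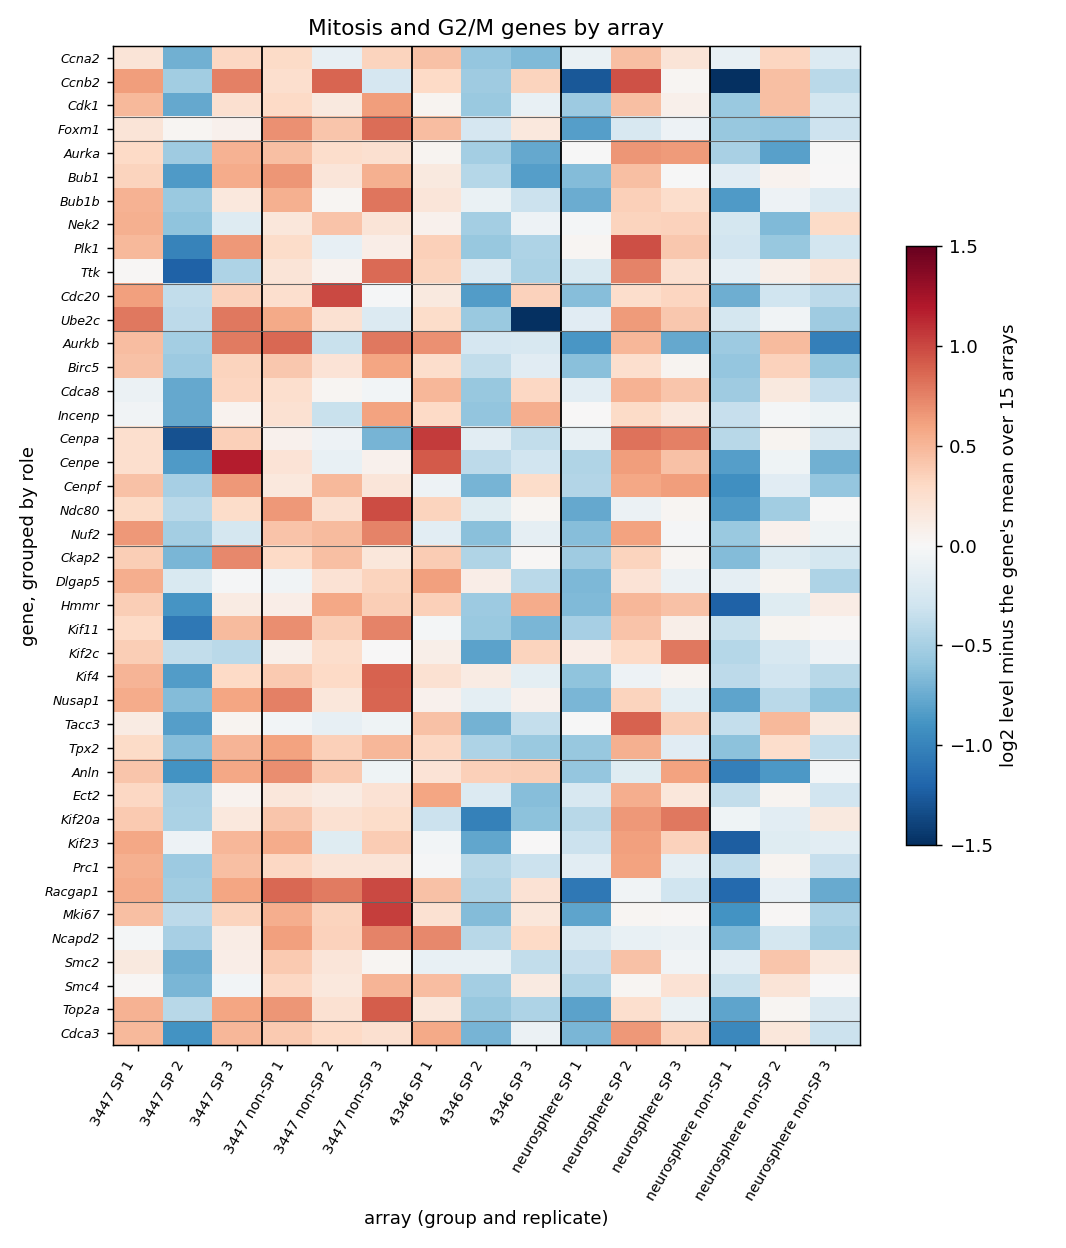
Log2 level of each of the 42 members minus its mean over all 15 arrays, one row per gene grouped by role and one column per array, in 5 groups of 3. Array 2 of the 3447 SP and the first array of the neurosphere SP are low for nearly every row.

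**Figure D2:**
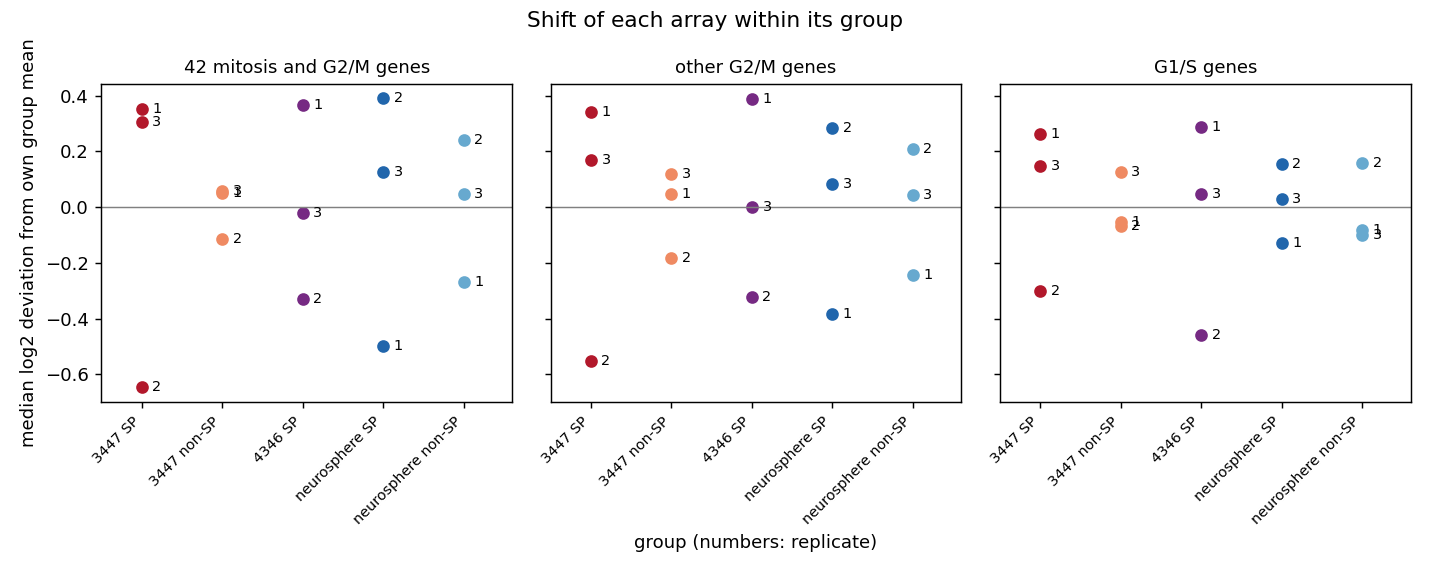
Median deviation from the group mean (log2, vertical axis) on each array, for the 42 members, for 62 other G2/M genes and for 35 G1/S genes, one panel each; points are arrays, numbered by replicate. The members spread from -0.65 to 0.39, the other G2/M genes from -0.55 to 0.39 and the G1/S genes from -0.46 to 0.29.

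Much of the members' spread in the SP groups was this shared shift. Their median within-group SD over the 5 groups was 0.45 (log2), against 0.37 for all genes, and 0.25 after each array's median member deviation was taken off. In the 3447 SP the median SD of the members was 0.59, and 0.17 after the shift was removed, and in the neurosphere SP it was 0.47, and 0.18 after. In the 3447 non-SP removal of the shift left the SD about where it was, at 0.22 against 0.21 before. Array 2 of the 3447 SP had an actin ratio of 2.74 and the first array of the neurosphere SP one of 2.84, inside the range of the other arrays. The same ratio for Gapdh was 1.41 and 1.62 on these arrays, each the highest of its group, against 2.00 on array 3 of the 4346 SP. Array 2 of the 3447 SP also had the highest actin ratio and the lowest median signal, 43.2, of its group. The list of 7 dissociation stress genes such as Fos and Jun deviated by 0.28 and -0.05 on those 2 arrays, and 62 other G2/M genes deviated by -0.55 and -0.38. What set these 2 arrays low was not tested.

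In non-SP cells of line 3447 most mitotic genes had higher values than in non-SP cells of the neurospheres, and 7 passed the test: Racgap1, Foxm1, Nusap1, Ncapd2, Ndc80, Mki67 and Top2a. Of the 42 members, 40 had differences above 0, against 52.8% of all genes, and the median was 0.68 against 0.04 for all genes. Of the 42, 7 were called higher, or 16.7% against 11.2% of all 11908 genes, and 0 lower, against 8.26%. The 3447 non-SP arrays all lay above the neurosphere non-SP arrays for 23 members, or 54.8%, against 21.3% of all genes. The number with an unadjusted p under 0.05 was 17, or 40.5%, against 17.7%. The share called lies nearer to the background than the share that does not overlap. The called genes spanned the cytokinesis, kinetochore, spindle, chromosome structure and transcription factor roles.

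Racgap1, a subunit of the centralspindlin complex that positions the cleavage furrow, had a signal of 2357, 2181 and 2533 in 3447 non-SP cells, against 559, 1157 and 753 in neurosphere non-SP cells. The 2 sets of arrays did not overlap, and the difference was 1.55 ± 0.35 with an adjusted p of 0.00532 by limma. Foxm1, the transcription factor that drives G2/M genes, had 230, 205 and 277 in 3447 non-SP, against 91.0, 113 and 103 in neurosphere non-SP cells. Its difference was 1.13 ± 0.28 (adjusted p = 0.00842, limma) and again no array of the neurospheres reached those of the tumour. Nusap1, a microtubule-binding protein of the spindle, had 6717, 4259 and 7334 in 3447 non-SP, against 2259, 2810 and 2568 in neurosphere non-SP cells. The difference was 1.20 ± 0.30 (adjusted p = 0.0105, limma), with all 3 tumour arrays higher.

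The chromosome structure genes included 3 of the 7 calls. Ncapd2, a condensin subunit that helps to compact chromosomes, had 640, 543 and 725 in 3447 non-SP, against 253, 363 and 282 in neurosphere non-SP cells, and its difference was 1.05 ± 0.28 (adjusted p = 0.0145, limma). A second Ncapd2 probe set gave 0.18, with an adjusted p of 0.822 where it stood in for the first, so the call depends on the probe set. Mki67, a coat protein of mitotic chromosomes widely used as a proliferation marker, had 3538, 3014 and 4943 in 3447 non-SP, against 1301, 2341 and 1753 in neurosphere non-SP cells. That gave 1.08 ± 0.32 (adjusted p = 0.0250, limma), and the 2 groups did not overlap. Top2a, a topoisomerase that untangles DNA before chromosomes separate, had 7529, 5319 and 9007, against 2697, 4580 and 3944 in neurosphere non-SP cells, and its difference of 0.93 ± 0.31 (adjusted p = 0.0488, limma) passed narrowly. Ndc80, the kinetochore subunit that holds microtubules, had 384, 303 and 517 in 3447 non-SP, against 128, 190 and 241 in neurosphere non-SP cells. It differed by 1.07 ± 0.32 (adjusted p = 0.0243, limma).

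**Figure D3:**
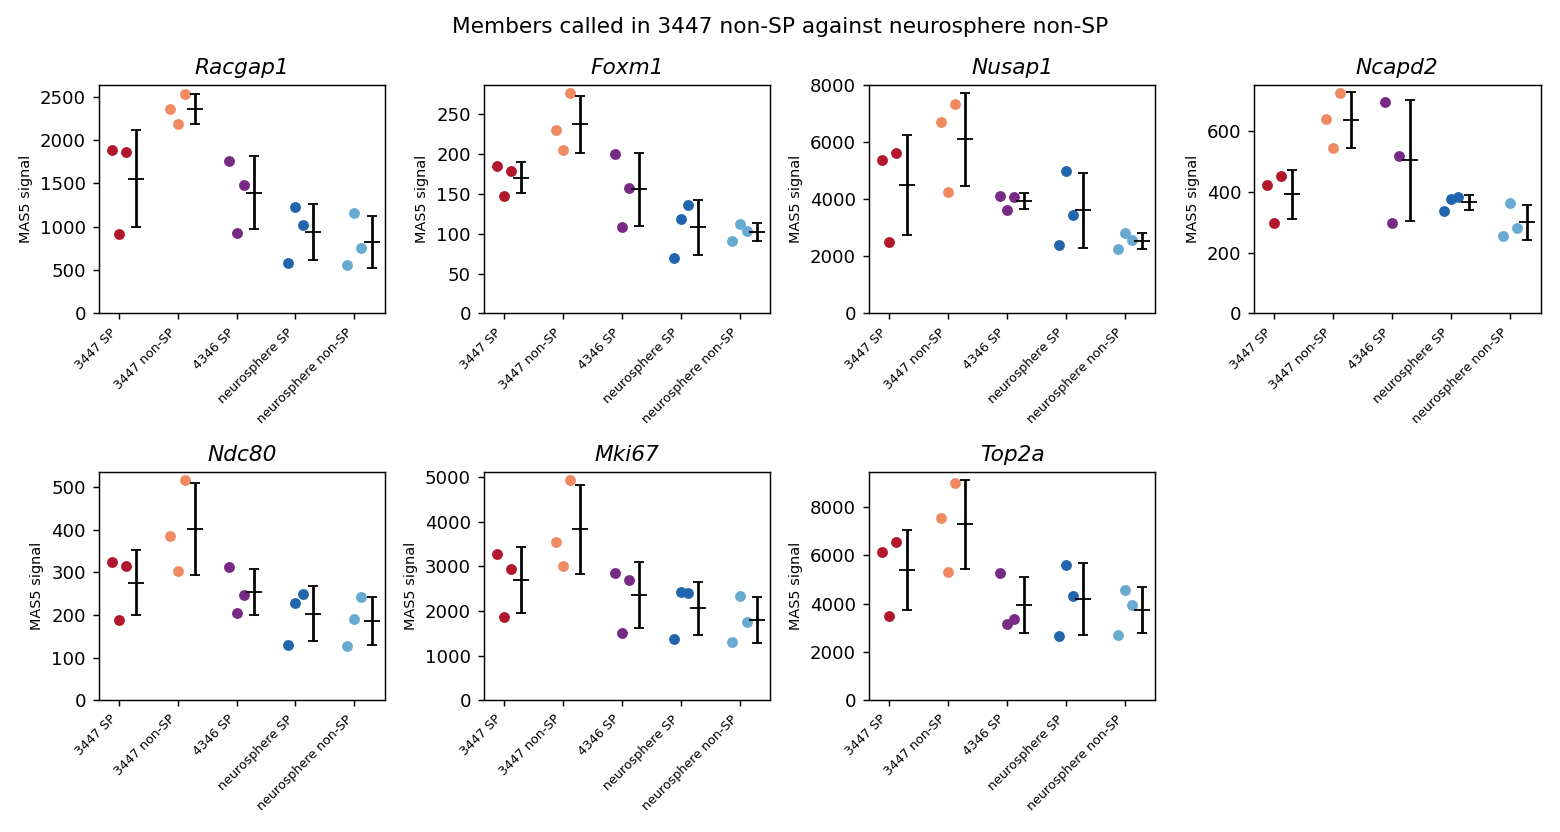
Deposited MAS5 signal (vertical axis, linear, starting at 0) of the 7 members called higher in 3447 non-SP than in neurosphere non-SP cells, for each of the 5 groups; points are arrays and the bars show mean ± SD. In 3447 non-SP all 3 arrays lie above all 3 neurosphere non-SP arrays for each gene.

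Most remaining members lay above 0 in this comparison without passing. The kinesin Kif4 was next, with 0.89 ± 0.32 (adjusted p = 0.0637, limma). Cdk1 had 2635, 2332 and 3213 in 3447 non-SP against 1463, 2794 and 1769 in neurosphere non-SP cells, so the groups overlapped, and its difference was 0.48 ± 0.34. Among the mitotic kinases and spindle checkpoint genes, Aurka had 239, 225 and 220 against 121, 116 and 168 in the neurospheres, with a difference of 0.75 ± 0.33 that did not pass (adjusted p = 0.131, limma). Bub1, another checkpoint kinase, differed by 0.51 ± 0.36 and Plk1 by 0.46 ± 0.40. The 6 genes of that role had differences of 0.32 to 0.83, the 4 chromosomal passenger complex genes (Aurkb, Birc5, Cdca8 and Incenp) 0.31 to 0.81 and the 9 kinesin and spindle genes -0.17 to 1.20. Birc5, the survivin subunit of the passenger complex, had 9905, 8074 and 11501 in 3447 non-SP, against 4741, 9002 and 4903 in neurosphere non-SP cells, where array 2 overlapped the tumour arrays. Its difference was 0.67 ± 0.29 (adjusted p = 0.123, limma). Tpx2, which activates Aurora A on the spindle, had 7117, 5667 and 6536, against 2999, 5324 and 3537 in neurosphere non-SP cells, and its difference of 0.73 ± 0.32 did not pass (adjusted p = 0.135, limma). Its groups did not overlap. Cdc20, the APC/C activator, was at 0.89 ± 0.37, the spindle motor Kif11 at 0.70 ± 0.36, the centralspindlin kinesin Kif23 at 0.78 ± 0.36 and the adaptor Cdca3 at 0.68 ± 0.42. The microtubule bundler Prc1 was at 0.46 ± 0.25, the APC/C enzyme Ube2c at 0.48 ± 0.40 and cyclin A2, Ccna2, at 0.17 ± 0.30. Only 2 of the 42 were below 0, the centromere histone Cenpa (-0.04) and the spindle protein Tacc3 (-0.17). The 44 other probe sets of 28 members had the same sign as the one used in 38 cases, with a median difference of -0.14 from it.

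**Figure D4:**
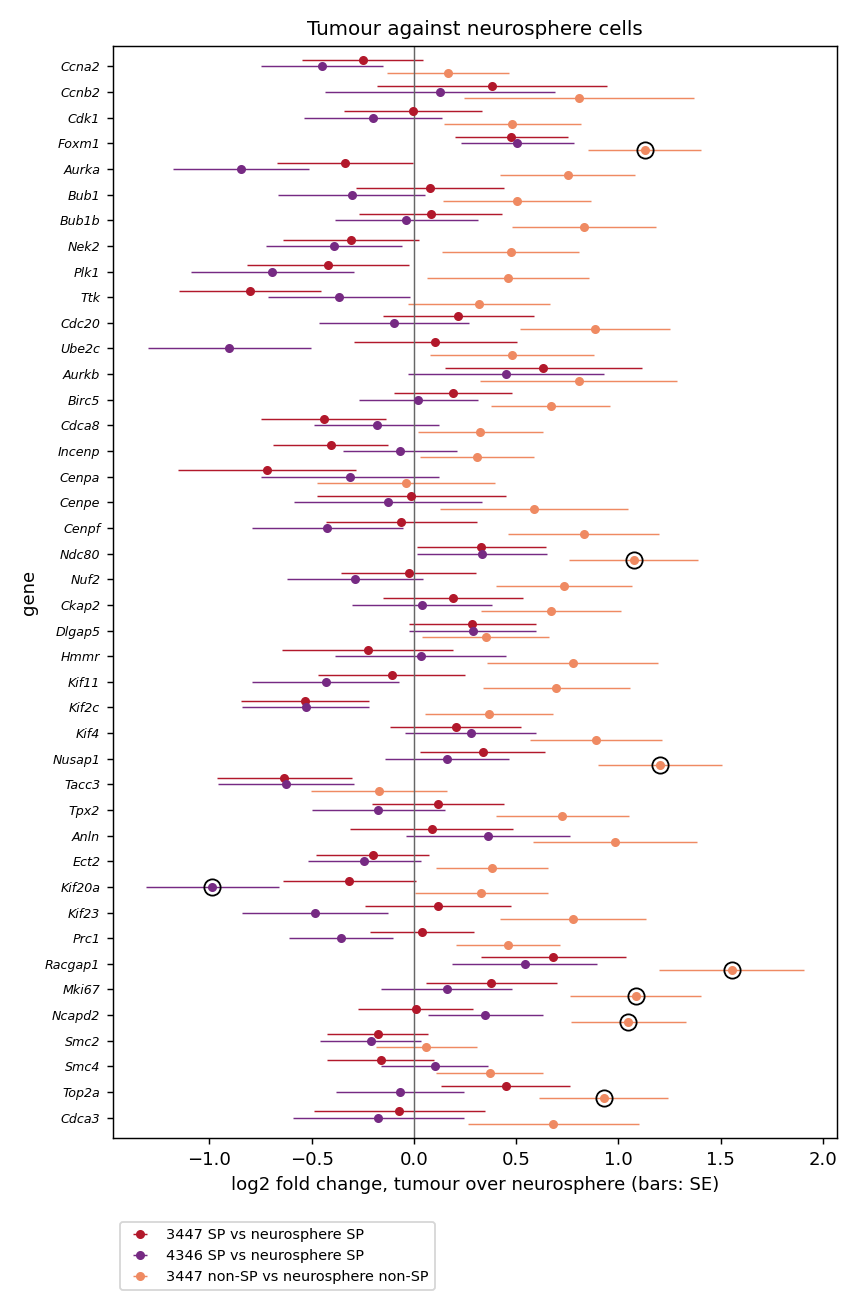
Log2 fold change of each member in 3 comparisons of tumour with neurosphere cells (3447 non-SP, 3447 SP and 4346 SP, each against the neurosphere cells of the same sort). Bars are SE, and open circles mark an adjusted p under 0.05. The non-SP differences lie above 0 for 40 of 42 members, while those of the SP cells lie on both sides of 0.

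In a list of 62 tested other G2/M genes, 50 lay above 0, with a median of 0.42 against 0.04 for all genes. Of the 62, 9 were called higher and 0 lower, and 35 G1/S genes had 2 higher, 0 lower and a median of 0.26. Of all genes 11.2% were called higher and 8.26% lower, so the counts called higher do not by themselves set these lists apart. The 4 other G2/M genes with the smallest p were Iqgap3, a scaffold protein, at 1.76 ± 0.34 (adjusted p = 0.00172, limma), the centromere gene Cenpi at 1.20 ± 0.33 (adjusted p = 0.0176), Shcbp1 at 1.32 ± 0.37 (adjusted p = 0.0180) and the Cdk1-activating phosphatase Cdc25b at 0.91 ± 0.27 (adjusted p = 0.0228). Of the 17 APC/C genes, 1, the E2 enzyme Ube2s, was higher (0.75 ± 0.25, adjusted p = 0.0435, limma), and of the 13 MuvB and DREAM genes 1, the E2F family member E2f5, was lower (-1.43 ± 0.29, adjusted p = 0.00210, limma). E2f5 was also lower than in neurosphere SP cells in 3447 SP (-1.51 ± 0.29, adjusted p = 0.00141, limma) and in 4346 SP cells (-1.23 ± 0.29, adjusted p = 0.00537, limma).

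The calls in the non-SP comparison depended on single arrays. Leaving out 1 array at a time gave 2 to 8 called members. It gave 2 without array 3 of the 3447 non-SP, 3 without the first array of the neurosphere non-SP and 4 without array 1 of the 3447 non-SP. Racgap1 and Foxm1 kept their calls under all 28 alternatives tried, and Nusap1 under 27. Ncapd2, Ndc80 and Mki67 lost theirs in 4 each, and Top2a lost its call in 15 of 28, of which 9 left out 1 array.

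In SP cells of line 3447, set against neurosphere SP cells, no member passed the test, with 0 of 42 called by limma (19.7% of all genes were called). Differences were above 0 for 21, against 47.9% of all genes, and below 0 for 21, with a median of 0.00 and a range of -0.80 to 0.68. Foxm1 had 185, 148 and 178 in 3447 SP, against 69.7, 119 and 136 in neurosphere SP cells, the only member whose arrays did not overlap (2.38% of members, 18.3% of all genes higher without overlap). Its difference was 0.48 ± 0.28 (adjusted p = 0.254, limma). The 1 member with an unadjusted p under 0.05 (32.3% of all genes) was Ttk, a spindle checkpoint kinase, at -0.80 ± 0.35 (adjusted p = 0.120, limma), with 380, 145 and 273 in 3447 SP and 292, 594 and 415 in neurosphere SP cells. Racgap1 was at 0.68 ± 0.35, Mki67 at 0.38 ± 0.32, Top2a at 0.45 ± 0.31, Aurka at -0.34 ± 0.33 and Cdk1 at 0.00 ± 0.34, none of which passed. The depolymerising kinesin Kif2c had 406, 232 and 242 in 3447 SP, against 309, 366 and 516 in neurosphere SP cells, and was at -0.53 ± 0.31. Tacc3 had 1427, 747 and 1297 in 3447 SP, against 1285, 2386 and 1652 in neurosphere SP cells, and was at -0.63 ± 0.33 (adjusted p = 0.204, limma). In both genes the groups overlapped. The centromere histone Cenpa was at -0.72 and did not pass. Members lay close to 0 in several roles, with Birc5 at 0.19 ± 0.29, Tpx2 at 0.12 ± 0.32, Ube2c at 0.11 ± 0.40, Bub1 at 0.08 ± 0.36, Prc1 at 0.04 ± 0.25, Cdca3 at -0.07 ± 0.42 and Ccna2 at -0.25 ± 0.30. The SE of these values leaves room for differences of either sign. The side on which the members lay turned with single low arrays: without array 2 of the 3447 SP, 33 of 42 were above 0 with a median of 0.38, and without array 1 of the neurosphere SP 9 were above 0 with a median of -0.27. With 1 array left out at a time 0 members were called in each case. The markers moved in this comparison too, with Sox10, Cspg4, Pdgfra, Gpr17, S100b and the neuronal Tubb3 higher in 3447 SP, and Olig1, Olig2, Nes, Prom1, Msi1, Gja1, Slc1a3, Aldh1l1, Aqp4 and the neuronal Snap25 lower. The summed signal of the 6 progenitor markers was 10405 to 14716 in 3447 SP and 6978 to 12165 in neurosphere SP cells, and the part of the markers in the members' values was not tested. Other G2/M genes gave 1 higher (Troap, 1.06 ± 0.31) and 1 lower (Kif18a, -1.10 ± 0.28) of 62. Of all genes 10.7% were called higher and 8.99% lower.

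In SP cells of line 4346, set against neurosphere SP cells, 1 of 42 members passed the test and the members had no stable side. With all arrays 27 of 42 were below 0, against 49.0% of all genes, with a median of -0.17 against 0.02 for all genes. The median was 0.03 with 25 above 0 without array 2 of the neurosphere SP, 0.02 with 21 above 0 without array 2 of the 4346 SP, and -0.43 with 8 above 0 without array 1 of the neurosphere SP. It was 0.11 with array weights and 0.09 with arrays centred on their medians, where that of all genes was 0.25. Kif20a, a kinesin of the central spindle, was the 1 member called, lower with 195, 109 and 155 in 4346 SP, against 175, 401 and 439 in neurosphere SP cells. It differed by -0.99 ± 0.32 (adjusted p = 0.0369, limma), and array 1 of the neurosphere SP overlapped the tumour arrays. That is 2.38% of members, against 10.3% of all genes called lower, and 0 members were higher, against 14.0%. The call was lost without array 2 or 3 of either the 4346 SP or the neurosphere SP, and 4 members were lower without array 1 of the 4346 SP. Of 3 members with an unadjusted p under 0.05 (36.6% of all genes), the others were Aurka (178, 111 and 92.3 in 4346 SP, against 168, 291 and 286 in neurosphere SP; -0.85 ± 0.33, adjusted p = 0.0750, limma) and the APC/C enzyme Ube2c (-0.90 ± 0.40, adjusted p = 0.114, limma). Mki67, at 0.16 ± 0.32, and Top2a, at -0.07 ± 0.31, lay near 0, and Foxm1, at 0.50 ± 0.28, lay above it. Plk1 had 225, 105 and 118 in 4346 SP, against 170, 357 and 237 in neurosphere SP cells, at -0.69 ± 0.40. Tacc3, at -0.63 ± 0.33, Ccna2, at -0.45 ± 0.30, Prc1, at -0.36 ± 0.25, and Bub1, at -0.30 ± 0.36, lay on the same side without passing. Cdk1 was at -0.20 ± 0.34, Tpx2 at -0.17 ± 0.32 and Birc5 at 0.02 ± 0.29. Cenpa was at -0.31 and Cdca3 at -0.17. Cell type markers differed here as well. Of the 6 progenitor markers, 4 were higher in 4346 SP (Sox10 by 8.24 ± 0.35, Gpr17, Cspg4 and Pdgfra) and 1, Olig2, lower, with a summed signal of 17010.2 to 22639.6 in 4346 SP and 6978 to 12165 in neurosphere SP cells. Of 7 neural stem markers, 4 (Nes, Prom1, Msi1 and Fabp7) were lower, and of 6 astrocyte markers 1 (S100b) was higher and 2 (Aldh1l1 and Aqp4) lower. The neuronal marker Tubb3 was higher. Of 7 dissociation stress genes, 2 (Hspa1b and Jun) were lower in 4346 SP, with a summed signal over the 7 of 37419 to 44008 in 4346 SP and 48296 to 56643 in neurosphere SP cells, and the part of these genes and markers in the members' values was not tested.

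Of the 62 other G2/M genes in this comparison, 2 were higher (Espl1, the protease that cleaves cohesin, and Iqgap3) and 3 lower (Kif18a, Ska3 and Lmnb1). Of all genes 14.0% were called higher and 10.3% lower. Cdc16 was higher and Cdc23 and Anapc15 lower among the APC/C genes, Cdc23 at -1.24 ± 0.19 (adjusted p = 0.000209, limma).

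Comparing the 2 tumour lines in SP cells, 3447 against 4346, 0 of 42 members were called (1.70% of all genes), and 1 had an unadjusted p under 0.05 by limma (16.6% of all genes). Ube2c was the member with the smallest p, with 4155, 1873 and 4005 in 3447 SP, against 2965, 1652 and 805 in 4346 SP cells, and differed by 1.01 ± 0.40 (adjusted p = 0.226, limma). Kif20a had 357, 181 and 301 in 3447 SP, against 195, 109 and 155 in 4346 SP cells, and differed by 0.67 ± 0.32 (adjusted p = 0.313, limma), with array 2 of the 3447 SP inside the 4346 range. Kif23, a partner of Racgap1 in centralspindlin, differed by 0.60 ± 0.36, Top2a by 0.52 ± 0.31, Aurka by 0.51 ± 0.33, Prc1 by 0.40 ± 0.25 and Bub1 by 0.38 ± 0.36. Mki67 differed by 0.22 ± 0.32, Cdk1 by 0.20 ± 0.34, Birc5 by 0.17 ± 0.29 and Foxm1 by -0.03 ± 0.28. Tpx2 differed by 0.29, Ccna2 by 0.20, Cdca3 by 0.10 and Cenpa by -0.40. The members' differences were above 0 for 28 of 42 (45.9% of all genes) with a median of 0.15, a side that turned with single arrays. Without array 2 of the 3447 SP, 38 were above 0 with a median of 0.50, against 18 with a median of -0.04 without array 1 of the 3447 SP and 19 with a median of -0.03 without array 2 of the 4346 SP. Without the arrays 3 of both groups, which stand apart, 17 were above 0 and the median was -0.11. Of the markers, Gpr17 and Gja1 were lower in 3447 SP, and the 6 progenitor markers were all below 0 (median -0.63), their part in the members' values not being tested. With arrays centred on their medians the median of the members became -0.33 and that of all genes -0.46, so the members lay 0.13 above all genes on that scale.

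In line 3447 the SP cells had lower values than non-SP cells for most members, but 0 of 42 passed the limma test (0.00840% of all genes). The number with an unadjusted p under 0.05 was 3, namely Ttk, Ncapd2 and Smc4 (7.14%, against 7.22% of all genes). Differences were below 0 for 38 of 42, against 51.7% of all genes, with a median of -0.32 against -0.01. Between groups 5 members did not overlap, all lower in SP cells: Ttk, Ncapd2, Smc4, Foxm1 and Racgap1 (11.9%, against 8.51% of all genes). Ttk had 380, 145 and 273 in 3447 SP and 401, 380 and 678 in 3447 non-SP cells, touching on the deposited scale, and differed by -0.92 ± 0.35 (adjusted p = 0.599, limma). Racgap1 had 1889, 911 and 1861 in 3447 SP against 2357, 2181 and 2533 in 3447 non-SP cells, with array 2 far below the others. Its difference, -0.67 ± 0.35, did not pass. Foxm1 differed by -0.55 ± 0.28, Mki67 by -0.51 ± 0.32, Cdk1 by -0.37 ± 0.34, Top2a by -0.37 ± 0.31 and Aurka by -0.22 ± 0.33. Smc4, an ATPase of condensin, had 2778, 1735 and 2584 in 3447 SP, against 3451, 3038 and 3878 in 3447 non-SP cells, and differed by -0.56 ± 0.26 (adjusted p = 0.686, limma). Ncapd2, of the same complex, differed by -0.70 ± 0.28 (adjusted p = 0.635, limma). Kif11 had 864, 322 and 929 in 3447 SP, against 1108, 893 and 1164 in 3447 non-SP cells, and differed by -0.70 ± 0.36, with array 3 of the SP overlapping the non-SP arrays. In the other roles Bub1 was at -0.45 ± 0.36, Tpx2 at -0.435 ± 0.32, Birc5 at -0.32 ± 0.29 and Cdca3 at -0.28 ± 0.42. Ccna2 was at -0.24 ± 0.30, Prc1 at -0.09 ± 0.25, Cenpa at 0.00 ± 0.43 and Ube2c at 0.20 ± 0.40.

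This pattern rested on array 2 of the 3447 SP. Without it, 20 of 42 members were above 0 and the median was -0.02. Without array 1 of the 3447 SP, 2 were above 0 and the median was -0.51. These fits took the SP and non-SP arrays of line 3447 as unpaired. The G1/S genes, which had a median of -0.60 with all arrays, had one of -0.41 without array 2, and the other G2/M genes had -0.39 and -0.13. Oligodendrocyte progenitor markers lay on the same side, 5 of 6 below 0 with a median of -0.61 and 0 called, and their summed signal did not overlap, at 10405 to 14716 in 3447 SP and 16296 to 18464 in 3447 non-SP cells. Their part in the members' values was not tested. With arrays centred on their medians the members' median was -0.71 and that of all genes -0.37, a difference of -0.34.

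In neurospheres most members had differences on the other side, above 0 in SP against non-SP cells for 38 of 42 (56.9% of all genes), with a median of 0.33 against 0.04 for all genes, and with 0 called by limma (0.0168% of all genes). In neurospheres 3 members had an unadjusted p under 0.05 (7.14%, against 3.63% of all genes). Aurka had 168, 291 and 286 in neurosphere SP, against 121, 116 and 168 in neurosphere non-SP cells, a difference of 0.87 ± 0.33. Plk1, a kinase of spindle assembly, had 170, 357 and 237 against 137, 136 and 134 in neurosphere non-SP cells, and differed by 0.84 ± 0.40. The kinetochore protein Cenpf differed by 0.82 ± 0.37. All 3 had an adjusted p of 0.9996 by limma. The 44 other probe sets of 28 members had the same sign as the one used in 32 cases, with a median difference of -0.17 from it. With the mean over the probe sets of a gene the members' median was 0.24, with 37 above 0. The median of the members, fitted without pairing, depended on single arrays. It was 0.10, with 28 of 42 above 0, without array 2 of the neurosphere SP. Without array 1 of the neurosphere non-SP it was 0.13, with 28 above 0. Without array 1 of the neurosphere SP it was 0.52, with 42 above 0. Each of these fits kept the equally numbered partner of the array left out. Equally numbered arrays deviated together, so these medians also carry the partner's deviation, and the pairs are given below. Kif23 had 246, 493 and 405 in neurosphere SP, against 125, 305 and 283 in neurosphere non-SP cells, at 0.74 ± 0.36. Of the other members given here, Cenpa was at 0.68 ± 0.43, Kif2c at 0.65 ± 0.31 and Ube2c at 0.57 ± 0.40. Cdca8 was at 0.50 ± 0.31, Cdca3 at 0.47 ± 0.42, Prc1 at 0.33 ± 0.25 and Mki67 at 0.20 ± 0.32. Ccna2 was at 0.18 ± 0.30, Tpx2 at 0.17 ± 0.32, Birc5 at 0.16 ± 0.29 and Cdk1 at 0.12 ± 0.34. Top2a was at 0.11 ± 0.31, Foxm1 at 0.10 ± 0.28 and Bub1 at -0.02 ± 0.36. For 4 members the arrays did not overlap (9.52%, against 4.36% of all genes higher): Plk1, Ncapd2, Kif2c and Incenp. The 7 dissociation stress genes were all above 0 here, with a median of 0.29, and 1 of them, Atf3, was called (2.24 ± 0.31, adjusted p = 0.0218, limma). Their summed signal was 48296 to 56643 in neurosphere SP and 39287 to 43273 in neurosphere non-SP cells. Cell type markers had differences here as well, with 0 called. The 4 neuronal markers tested (median -0.88) and the 6 progenitor markers (median -0.39) were all below 0. Of 6 astrocyte markers 5 were above 0 (median 0.71), and of 7 neural stem markers 4 (median 0.09). The part of the stress genes and markers in the members' values was not tested. In line 3447 the same genes had a median SP effect of 0.00.

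Equally numbered neurosphere arrays deviated together, and their pairs were compared 1 at a time. The members were above 0 in 29, 39 and 40 of 42 cases in pairs 1, 2 and 3, with medians of 0.10, 0.45 and 0.43, against medians of 0.04, 0.07 and 0.00 for all genes. In all 3 pairs 28 of 42 members were higher in SP cells, against 20.8% of all genes. With the replicate number as a block, 0 members passed, the smallest adjusted p being 0.663 by limma.

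**Figure D5:**
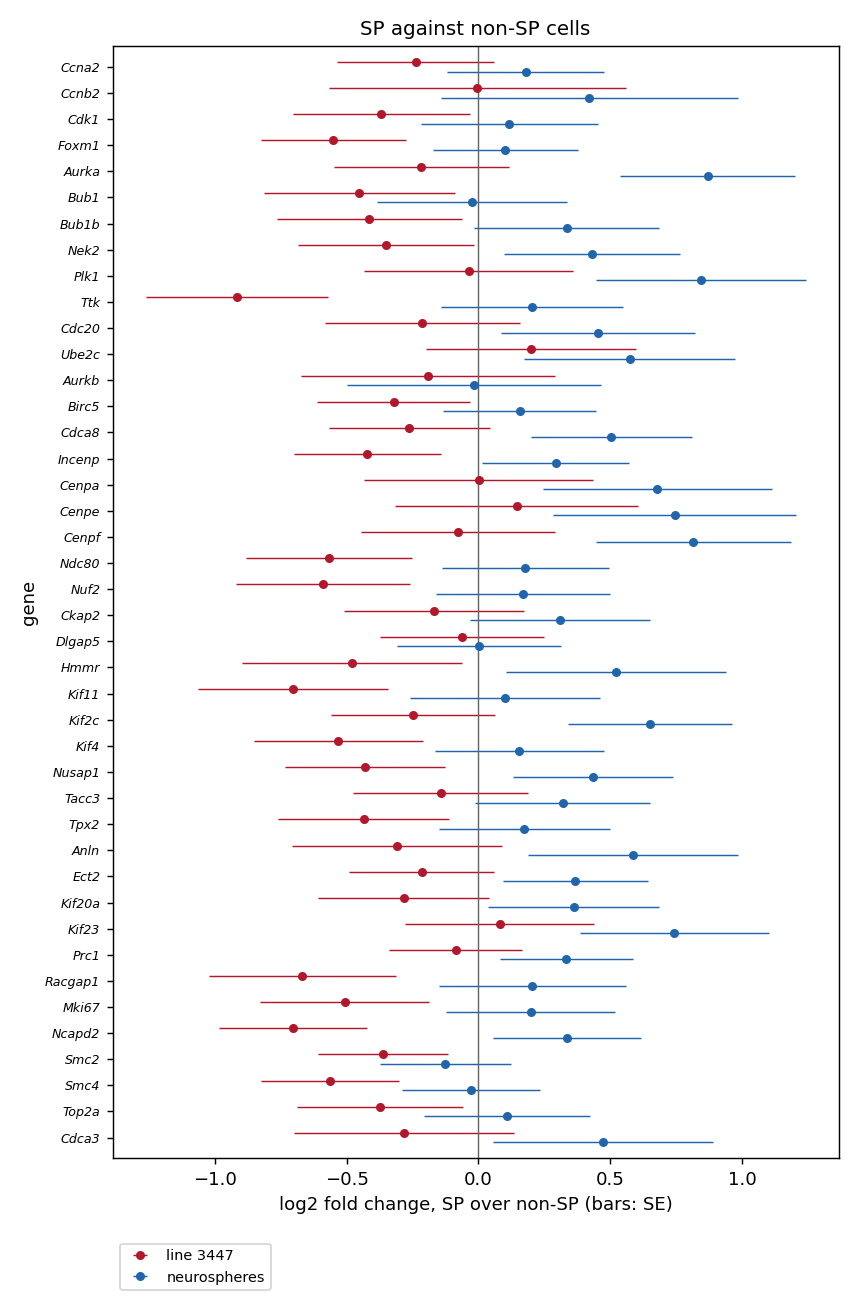
Log2 fold change of SP over non-SP cells with SE bars for each of the 42 members, in line 3447 and in neurospheres. Values for line 3447 lie below 0 for 38 members and those for neurospheres above 0 for 38.

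The difference between the SP effects, line 3447 minus neurospheres, was below 0 for all 42 members (55.3% of all genes), with a median of -0.67 against -0.05 for all genes. Of the 42, 0 were called (0% of all genes, 0 of 11908), and 3 had an unadjusted p under 0.05, or 7.14% against 2.23% of all genes. These were Ncapd2 at -1.04 ± 0.40, Aurka at -1.09 ± 0.47 and Ttk at -1.12 ± 0.49, each with an adjusted p of 0.999 by limma. By role, the mitotic kinases and checkpoint genes had the lowest median, -0.83, and the cyclin and Cdk1 genes the highest among roles with over 2 genes, -0.43. Kif2c was at -0.90 ± 0.44, Nusap1 at -0.87 ± 0.43, Incenp at -0.71 ± 0.40, Mki67 at -0.71 ± 0.45, Foxm1 at -0.65 ± 0.39 and Cdk1 at -0.49 ± 0.48. Cdca3 was at -0.75, Cenpa at -0.68, Tpx2 at -0.61, Top2a at -0.48 and Birc5 at -0.48. Bub1 was at -0.43, Prc1 at -0.42, Ccna2 at -0.42 and Ube2c at -0.37. Without array 2 of the 3447 SP the median of the members was -0.36 and 5 were above 0, and without array 1 of the neurosphere SP it was -0.95. Of the 44 other probe sets, 37 had the same sign as the one used, with a median difference of 0.21 from it.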

How the data were processed

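Per the labels' protocols, RNA of sorted cells came from an RNeasy Micro column and was amplified with the Ovation Pico kit of NuGEN; with biotin as the label. The files hold deposited intensities: the authors computed MAS5 signals with Affymetrix Expression Console, per the submitters' processing notes (no version is stated). The mean of each array without its lowest and highest 2% of probe sets was 500, so the arrays had been scaled.

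Of 45101 probe sets, 64 controls were left out. Of 45037 left, 34945 had 1 gene symbol in the platform annotation, 932 several and 9160 none; 34741 were found in RefSeq through their Entrez identifier, and 0 symbols changed. Arrays were quantile-normalized and log2(signal + 16) taken. Probe sets above their own array's median on at least 3 arrays were kept (26256), and the highest-mean probe set stood for each gene. limma 3.58.1 in R 4.3.3 fitted 5 group means over all 15 arrays (with 10 residual degrees of freedom and an intensity trend), with two-sided tests of 7 comparisons and Benjamini-Hochberg adjustment at 0.05 over 11908 genes; the script was tested on simulated data. Arrays give no depth; their number limits the precision.

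The 43 members and the other lists were chosen with earlier results of these data known. Any member could be named. Differences, some without an SE, were given for members with the smallest p in each comparison, called members and the member of each role with the highest signal. They were also given for Foxm1, Cdk1, Aurka, Mki67 and Top2a, and of other lists up to 4 genes by p were named. Equal replicate numbers paired the neurosphere arrays, whose deviations correlated at 0.58, 0.52 and 0.62 over genes. They did not pair those of line 3447, at -0.22, -0.25 and -0.12. There, SP array 1 correlated with non-SP array 2 at 0.36 and SP array 2 with non-SP array 3 at 0.29. For SP array 3 with non-SP array 1 it was 0.22. The remaining pairs of unequal number in line 3447 lay between -0.18 and -0.03. A fit of line 3447 paired by unequal numbers was not tested. Alternatives covered the scaling, pseudocount, filter, probe set, model, replicate block and leaving out arrays.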

Additional observations from a re-analysis of the deposited data

Results flagged for a closer look

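Ncapd2, the condensin subunit, was picked out because the SP and non-SP arrays did not overlap in either origin and lay on opposite sides, on the normalized scale. Fitted effects of opposite sign were common among the members, with 38 of 42 below 0 in line 3447 and 38 of 42 above 0 in neurospheres, and the lack of overlap in both origins is what set Ncapd2 apart. Every 3447 SP array lay below every 3447 non-SP array, with log2 levels of 8.73, 8.26 and 8.88 in SP against 9.37, 9.11 and 9.50 in non-SP cells. Every neurosphere SP array lay above every neurosphere non-SP array, with 8.52, 8.65 and 8.67 against 8.09, 8.50 and 8.24. The difference of the SP effects was -1.04 on the log2 scale and did not pass the test (adjusted p = 0.999, limma). On the deposited signals the neurosphere groups overlapped, at 337, 378 and 383 in SP and 253, 363 and 282 in non-SP cells. A second probe set of Ncapd2 gave a difference of -0.65.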

How the results depend on the processing

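Over 7 comparisons and 28 alternatives, 179 of 196 counts of called members stayed within 1.5 times the reported count. Apart from 3447 non-SP and 4346 SP against their neurosphere cells, every count was 0 in all fits. There the match was 0 against 0, and the 17 counts that moved lay in the 2 named comparisons. Of 196 medians, 192 moved by less than the spread, the SD of array medians within the groups compared. A median could so change sign and count as unmoved, as from -0.17 to 0.11 with array weights in 4346 SP against neurosphere SP. Of 1204 results for named members, 37 lost their call and 2 gained one. A further 4 changed sign without a call, and 0 with a call. Centring arrays on their medians moved the median of the members to 0.89 in 3447 non-SP against neurosphere non-SP cells, to -0.33 in 3447 SP against 4346 SP and to -1.08 for the difference of SP effects. The medians of all genes moved as well, to 0.22, -0.46 and -0.42. Against all genes the centred members lay at 0.67, 0.13 and -0.66, so most of the move was shared by all genes. The 1 lower member of 4346 SP against neurosphere SP became 0 with centring, with no filter, with only the groups compared, with array weights and without arrays 3 of the 3447 SP and 4346 SP, and 2 with the second probe set. The 7 higher members in the non-SP comparison became 11 with only the groups compared and 11 with array weights. They became 10 with a replicate block in neurospheres and 12 with a replicate block also in line 3447, whose numbers do not pair the arrays. Each block lay within an origin, so in this comparison between origins it took spread between mice out of the error. The counts of 10 and 12 are therefore lenient and do not strengthen the result. No other call count changed under the block. Leaving out 1 array gave 2 to 8 calls and a median of 0.47 to 0.80 in the non-SP comparison, and 0 to 4 calls in 4346 SP against neurosphere SP. The cause of these changes was not tested, and each leave-out changed both the number of arrays and which array was absent. Dim probes are limited by signal over background, but all members lay above their array median.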
